A study of Sus scrofa with 8 samples.

Results

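The Notch pathway was examined in pig cells from the condylar cartilage of the temporomandibular joint through 10 genes taken by name from the deposited table of 18898 genes: the receptors NOTCH1, NOTCH2 and NOTCH3, the ligands JAG1, JAG2 and DLL1, and the transcription factors HES1, HEY1, HEY2 and HEYL. All 10 were in the table once each and all 10 passed the filter on low counts, which left 16020 genes for testing. RNA-seq of wild-type tissue, depleted of ribosomal RNA, gave 4 control libraries and 4 libraries from a model of osteoarthritis in which a 5.0 mm hole was punched through the posterior-lateral part of the articular disc while the condyle was shielded. The labels call the libraries biological replicates and give neither the age of the pigs, the time since surgery nor whether each library came from a separate animal. P-values therefore measure the spread between these libraries.

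Notch receptors are membrane proteins that are cut when a Jagged or Delta ligand on a neighbouring cell binds them. The freed intracellular part joins the DNA-binding protein RBPJ in the nucleus and turns on genes of the HES and HEY families, which encode repressors of the basic helix-loop-helix type. In the growing skeleton the pathway is known for holding back early steps of chondrocyte and osteoblast differentiation, and it is also active in endothelium, in the mural cells of vessels and in bone-forming cells.

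Libraries held between 11354200 and 25412939 estimated counts, and the median count of the 10 genes ranged from 153.5 to 1512.5. Levels compared between libraries are TMM-scaled CPM, and levels compared between genes are the deposited TPM, which correct for length. RNAs of the misc_RNA and ribozyme classes took 49.4% to 57.1% of TPM in controls and 30.9% to 39.3% in osteoarthritis; their part in TPM differences between groups was not tested. Controls 1 and 3 stood apart from controls 2 and 4: their log2 CPM correlated at 0.97 across genes, against 0.84 to 0.85 with controls 2 and 4, and the chi-square per gene between their counts was 31.9, against 30.7 for osteoarthritis 1 and 2 and 126 to 473 for the other pairs within a group. The chondrocyte genes COL2A1 and ACAN were present in all 8 libraries, as were markers of bone cells, endothelium, mural cells, fibroblasts and leukocytes. In bulk tissue of this kind, fewer cells of a type and less RNA per cell cannot be told apart.

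None of the 10 genes changed at an adjusted p under 0.05 by edgeR's quasi-likelihood test, which called 0.618% of all genes tested. NOTCH2 alone had an unadjusted p under 0.05, as did 15.2% of all genes (7.52% higher and 7.65% lower in osteoarthritis). NOTCH2 was also the single member whose groups did not overlap, as was the case for 11.2% of all genes (5.69% higher and 5.52% lower). Fold changes lay above 0 for 6 genes and below 0 for 4, with a median log2 fold change of 0.27 beside 0.0049 over all genes tested. Without both controls 1 and 3, 3 lay above 0 and 7 below, with a median of -0.36 beside 0.053. DESeq2 and limma-voom also called 0 of the 10, where they called 4.75% and 0.743% of all genes. Each put 1 of the 10 under an unadjusted p of 0.05, as it did 15.6% and 16.1% of all genes. Limma-voom with sample weights called 6, where it called 20.8% of all genes; it gave controls 1 and 3 weights of 3.25 and 3.58 and controls 2 and 4 weights of 0.432 and 0.324. Limma on log2(TPM + 0.1) put all 10 higher in osteoarthritis, where 86.6% of all genes were called and all genes had a median of 1.83.

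**Figure D1:**
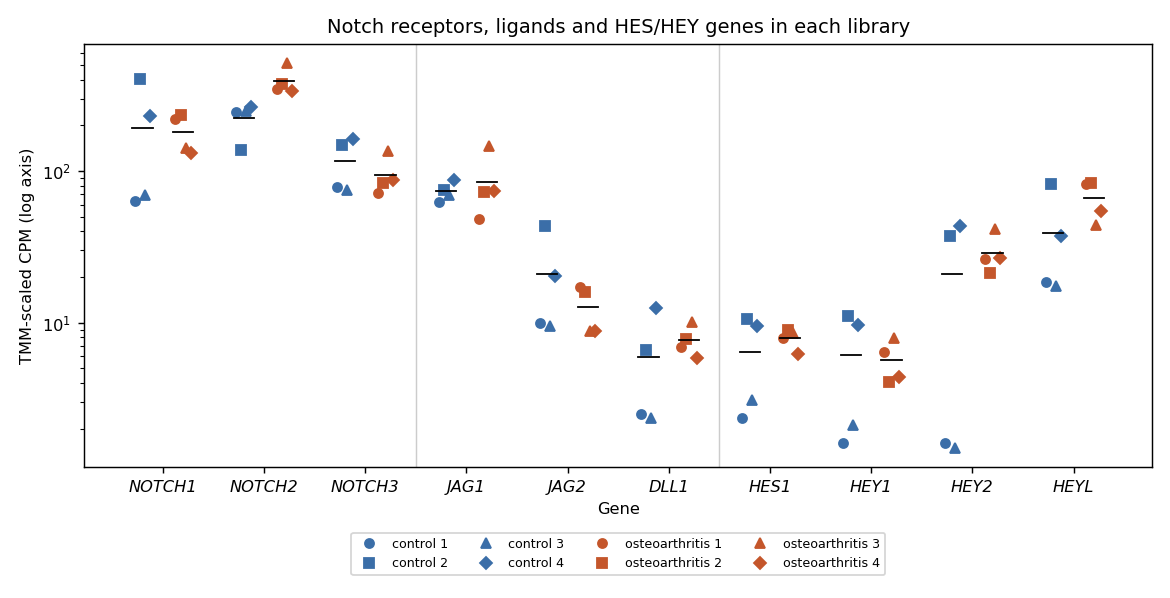
Level of each of the 10 genes in every library, in TMM-scaled CPM on a log axis, with 1 marker shape per replicate number, controls in blue, osteoarthritis in orange and a bar at each group mean. The 4 osteoarthritis points of NOTCH2 all lie above its 4 control points, and controls 1 and 3 lie below every other library for NOTCH1, DLL1, HES1, HEY1, HEY2 and HEYL.

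NOTCH2 was the most abundant receptor per length in 6 of 8 libraries, and NOTCH1 in control 2 and osteoarthritis 1. NOTCH2 (ENSSSCG00000006709, chromosome 4, 100951522 to 101152348, RefSeq gene span on Sscrofa11.1) was measured at 243, 138, 248 and 265 CPM in controls 1 to 4 and at 344, 375, 513 and 338 CPM in osteoarthritis libraries 1 to 4. Every osteoarthritis library exceeded the highest control, and control 2 lay far below the other controls. Group means were 224 ± 57.5 and 393 ± 81.6 CPM (SD, n = 4 each), a log2 fold change of 0.81 ± 0.28 (SE; unadjusted p = 0.017, edgeR adjusted p = 0.22). The difference exceeded both SDs and was positive under each of the 24 alternatives, from 0.56 with effective lengths as offsets to 2.52 on log2 TPM. It passed the adjusted threshold only with limma-voom with sample weights and on log2 TPM, and it was 0.63 both without osteoarthritis 3, its highest library, and without control 2, its lowest.

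NOTCH1 (ENSSSCG00000038509), the receptor studied most in skeletal progenitors, was measured at 63.0, 404, 69.7 and 230 CPM in controls 1 to 4. In osteoarthritis libraries 1 to 4 it was at 219, 234, 141 and 131 CPM. The osteoarthritis libraries all fell inside the range of the controls, which spanned 6.42-fold. Means were 192 ± 161 and 181 ± 53.0 CPM (log2 fold change -0.08 ± 0.58, edgeR adjusted p = 0.97), and the sign turned in 10 of the 24 alternatives. It was above 0 without control 2 or 4 or osteoarthritis 3 or 4, and 0.58 without control 2. Without both controls 1 and 3 it was -0.76 ± 0.35 (edgeR adjusted p = 0.28), and scaled by library size alone it was 0.75. The effective length that the quantification assigned to NOTCH1, which depends in part on which transcripts were counted, was 5523 to 6088 bases in controls and 4868 to 5140 bases in osteoarthritis, without overlap. The lengths of the other members overlapped between groups. The share of all genes without such overlap was not computed, and the cause of the difference was not tested.

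NOTCH3 (ENSSSCG00000025176, chromosome 2, 62364507 to 62402348), a receptor known from vascular smooth muscle and pericytes, was measured at 78.6, 148, 74.5 and 163 CPM in controls 1 to 4. The osteoarthritis libraries had 71.8, 83.4, 136 and 87.5 CPM. Groups overlapped (116 ± 46.2 and 94.6 ± 28.3 CPM; -0.30 ± 0.33, edgeR adjusted p = 0.71). Mural cell markers were called in neither direction by edgeR (0 of 9 tested), with 3 lower (ACTA2, MYH11 and TAGLN) and 0 higher at an unadjusted p under 0.05. Of the 9 fold changes, 3 lay above 0. MYH11 and TAGLN were lower in every osteoarthritis library than in any control. The summed level of the mural markers was 713 to 1180 CPM in controls and 576 to 2040 CPM in osteoarthritis. The marker with the highest mean TPM was CSPG4, a proteoglycan that chondrocytes also express. CSPG4 was at 629, 164, 673 and 189 CPM in controls 1 to 4. In osteoarthritis libraries 1 to 4 it was at 1339, 1660, 271 and 692 CPM. It made up most of the sum in controls 1 and 3 and in osteoarthritis 1, 2 and 4. Any part of these cells in NOTCH3 was not tested.

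As a share of the TPM of the 3 receptors, which does not depend on scaling between libraries, NOTCH3 was smaller in every osteoarthritis library than in any control. It made up 20.1%, 17.2%, 17.9% and 20.3% in controls 1 to 4 and 9.72%, 10.1%, 17.0% and 14.6% in osteoarthritis libraries 1 to 4. The mean share was 18.9% ± 1.57 in controls and 12.9% ± 3.56 in osteoarthritis, a difference of -6.03 percentage points (exact two-sided permutation p = 0.029 over 70 assignments, the smallest that 4 against 4 can give; adjusted p = 0.29 over the 10 shares tested). Adjusted over the 10, 1 share alone cannot pass even at this smallest p, so missing the threshold decides nothing here. The difference stayed between -7.42 and -4.98 points with each library left out in turn. NOTCH2 held 44.8% ± 18.4 in controls and 49.2% ± 5.39 in osteoarthritis, and NOTCH1 36.3% ± 19.2 and 38.0% ± 8.86. Both overlapped between groups, with control 2 at 20.1% NOTCH2 and 62.7% NOTCH1.

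**Figure D2:**
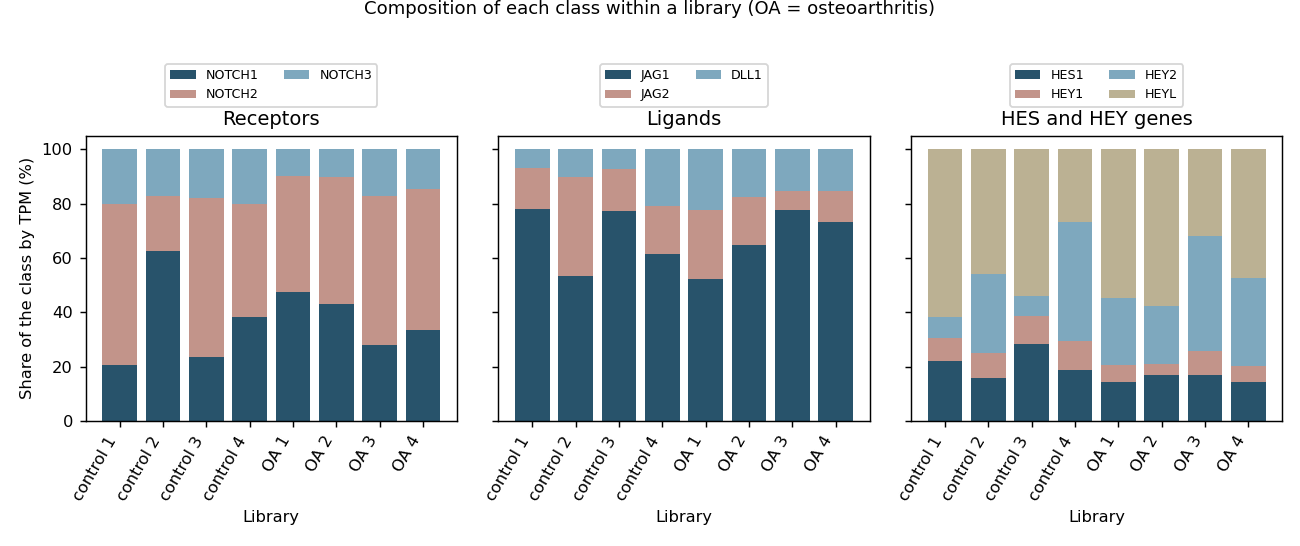
Share of each gene in the summed TPM of its class within a library, in percent, for the 3 receptors, the 3 ligands and the 4 HES and HEY genes. The NOTCH3 segment is smaller in the 4 osteoarthritis libraries (9.72% to 17.0%) than in the 4 controls (17.2% to 20.3%), and HEY2 is a small segment in controls 1 and 3 alone.

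JAG1 (ENSSSCG00000007067, chromosome 17, 19591248 to 19629659), a Jagged ligand, was the most abundant of the 3 ligands per length in all 8 libraries, with 52.4% to 77.9% of their TPM. It was measured at 62.4, 75.3, 69.2 and 87.8 CPM in controls 1 to 4 and at 48.2, 72.5, 146 and 73.6 CPM in osteoarthritis libraries 1 to 4. The controls were close together, spanning 1.41-fold, while osteoarthritis 3 was the highest library and osteoarthritis 1 the lowest. Means were 73.7 ± 10.8 and 85.2 ± 42.5 CPM (0.21 ± 0.32, edgeR adjusted p = 0.80), and the fold change was -0.20 without osteoarthritis 3.

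JAG2 (ENSSSCG00000002555), the second Jagged ligand, was measured at 9.94, 43.5, 9.50 and 20.4 CPM in controls 1 to 4 and at 17.2, 16.0, 8.84 and 8.87 CPM in osteoarthritis libraries 1 to 4. Control 2 was the highest library and the groups overlapped (20.8 ± 15.9 and 12.7 ± 4.50 CPM; -0.70 ± 0.50, edgeR adjusted p = 0.55). Without both controls 1 and 3 the fold change was -1.28 ± 0.39 (unadjusted p = 0.010, edgeR adjusted p = 0.14). Leaving out these controls put 19.5% of all genes under an unadjusted edgeR p of 0.05. Without control 2 the fold change of JAG2 was -0.08. Basal epithelium, where JAG2 is known to be expressed, was represented in controls by KRT5 and KRT14 and nearly absent from osteoarthritis libraries: 7 of 9 tested markers were lower by edgeR. The summed level of the epithelial markers was 419, 252, 218 and 112 CPM in controls 1 to 4 and 5.90 to 13.9 CPM in osteoarthritis. Among controls this sum was highest in control 1, whereas JAG2 was highest in control 2. The part of epithelium in JAG2 was not tested.

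DLL1 (ENSSSCG00000027726, chromosome 1, 198815 to 211346), a Delta ligand, was the least abundant ligand per length in 5 of 8 libraries and lay above JAG2 in control 4 and osteoarthritis 3 and 4. Its counts were 33, 42, 27 and 254 in controls 1 to 4 and 112, 92, 342 and 219 in osteoarthritis libraries 1 to 4, or 2.52, 6.61, 2.38 and 12.5 CPM and 6.89, 7.79, 10.1 and 5.85 CPM. Controls 1 and 3 were the lowest libraries and control 4 the highest, so the osteoarthritis libraries lay inside the range of the controls. The means of 5.99 ± 4.74 and 7.66 ± 1.82 CPM did not differ beyond the spread (0.34 ± 0.51, edgeR adjusted p = 0.79). With control 4 left out the fold change was at its highest among fits without 1 library, 1.03, and it was -0.30 without both controls 1 and 3.

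The HES and HEY genes, which Notch signalling is known to induce, differed more among the controls than between the groups. HES1 (ENSSSCG00000031356, chromosome 13, 131135970 to 131137865) was measured at 2.37, 10.6, 3.08 and 9.51 CPM in controls 1 to 4 and at 7.99, 8.97, 8.60 and 6.20 CPM in osteoarthritis libraries 1 to 4. Controls 2 and 4 were above, and controls 1 and 3 below, all osteoarthritis libraries. Group means were 6.38 ± 4.25 and 7.94 ± 1.23 CPM (0.32 ± 0.46, edgeR adjusted p = 0.78), and the fold change was -0.30 without both controls 1 and 3.

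HEY1 (ENSSSCG00000006159, chromosome 4, 56859640 to 56863807) was at 1.61, 11.0, 2.11 and 9.71 CPM in controls 1 to 4 against 6.46, 4.06, 7.89 and 4.41 CPM in osteoarthritis libraries 1 to 4. As for HES1, controls 2 and 4 were above, and controls 1 and 3 below, all osteoarthritis libraries. The order among the osteoarthritis libraries differed from that of HES1. The 2 lowest values rest on 21 and 24 counts. Its means were 6.11 ± 4.95 and 5.70 ± 1.80 CPM (-0.08 ± 0.60, edgeR adjusted p = 0.97). Without both controls 1 and 3 the fold change was -0.81 ± 0.33 (edgeR adjusted p = 0.23), and without control 2 it was 0.34.

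HEY2 (ENSSSCG00000004223, chromosome 1, 37219887 to 37231321), a factor known from arterial endothelium and heart, had the widest range of the 10 among the controls, 28.9-fold, and spanned 1.95-fold among the osteoarthritis libraries. It was measured at 1.61, 37.0, 1.50 and 43.2 CPM in controls 1 to 4, on 21, 235, 17 and 882 counts. In osteoarthritis libraries 1 to 4 it was at 26.3, 21.3, 41.6 and 26.6 CPM. Control 4 was the highest library and controls 1 and 3 the lowest by a wide gap. The group means of 20.8 ± 22.4 and 28.9 ± 8.75 CPM gave 0.48 ± 0.95 (edgeR adjusted p = 0.85), and -0.43 ± 0.30 without both controls 1 and 3 (edgeR adjusted p = 0.47). It was 1.18 without control 4 and 0.11 without control 1 or control 3.

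HEYL (ENSSSCG00000038956, chromosome 6, 95442655 to 95459597), known from vascular smooth muscle, held the largest mean share of the 4 HES and HEY genes by TPM, 47.0% ± 15.1 in controls and 48.0% ± 11.7 in osteoarthritis. It was measured at 18.6, 82.2, 17.5 and 37.2 CPM in controls 1 to 4 and at 82.4, 83.7, 43.7 and 54.2 CPM in osteoarthritis libraries 1 to 4. All osteoarthritis libraries exceeded controls 1, 3 and 4, while control 2 lay just below osteoarthritis 1 and 2 and above osteoarthritis 3 and 4. Group means were 38.9 ± 30.3 and 66.0 ± 20.1 CPM, a difference smaller than the SD of the controls (0.77 ± 0.50, edgeR adjusted p = 0.50). The fold change was above 0 in all 24 alternatives, at 0.20 without both controls 1 and 3 and 1.42 without control 2.

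Within the HES and HEY class, HES1 made up 21.2% ± 5.30 of TPM in controls and 15.7% ± 1.49 in osteoarthritis (exact permutation p = 0.086, adjusted p = 0.29). HEY1 made up 9.67% ± 1.13 and 6.23% ± 1.82 (exact permutation p = 0.057, adjusted p = 0.29). Both shares overlapped between groups, HEY1 only through the 8.61% of osteoarthritis 3, just above the 8.28% of control 1.

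**Figure D3:**
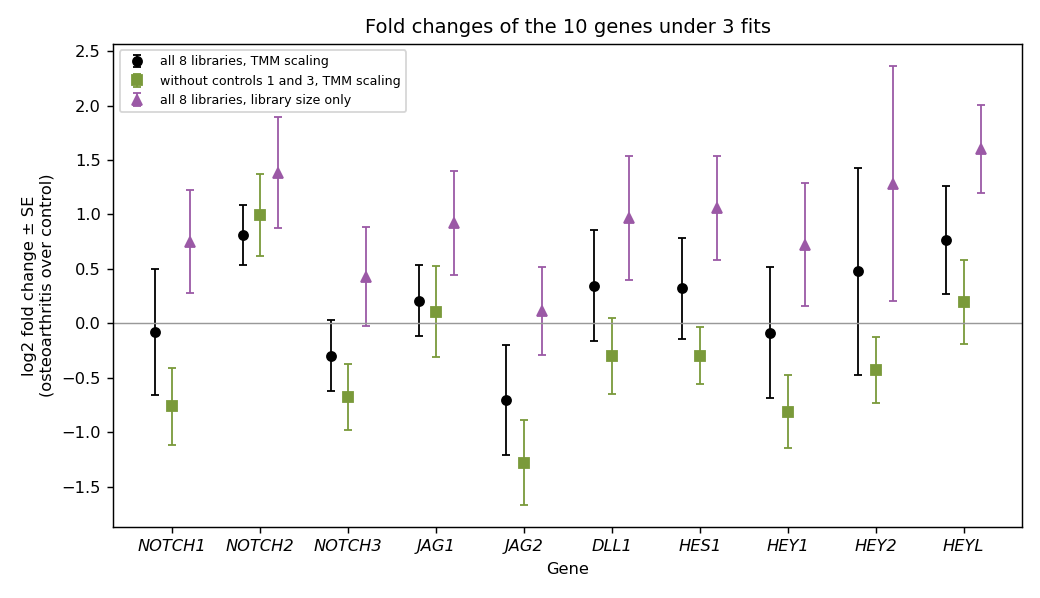
Log2 fold change of osteoarthritis over control for each gene, with its SE, from edgeR with all 8 libraries, without controls 1 and 3, and with scaling by library size alone. NOTCH2, JAG1 and HEYL are above 0 in all 3 fits, while DLL1, HES1 and HEY2 turn below 0 without controls 1 and 3 and NOTCH1, NOTCH3, JAG2 and HEY1 turn above 0 with library size alone.

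Controls 1 and 3 were the 2 lowest of all 8 libraries for 6 of the 10 genes (NOTCH1, DLL1, HES1, HEY1, HEY2 and HEYL), as they were for 16% of all genes tested. They were the 2 highest for 0 of the 10 and for 11.3% of all genes. The sum of the 4 HES and HEY genes was 24.2, 141, 24.2 and 99.6 CPM in controls 1 to 4 and 123, 118, 102 and 91.4 CPM in osteoarthritis libraries 1 to 4. That sum thus lay near the osteoarthritis level in controls 2 and 4 and far below it in controls 1 and 3.

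The summed markers of several other cell types were low in the same libraries. Bone cell markers summed to 375, 2220, 400 and 2300 CPM in controls 1 to 4 and to 2890 to 4410 CPM in osteoarthritis. Of the 7 bone cell markers, 6 had their lowest values in controls 1 and 3. The exception was SP7, an osteoblast transcription factor, which was at 324, 222, 349 and 237 CPM in controls 1 to 4 and made up most of the sum in controls 1 and 3. Leukocyte markers, of which CSF1R had the highest mean TPM, summed to 44.8, 665, 45.6 and 636 CPM in controls and to 166 to 486 CPM in osteoarthritis. Endothelial markers summed to 198, 486, 198 and 341 CPM in controls and to 314 to 429 CPM in osteoarthritis, although PECAM1 by itself varied only between 55.3 and 72.3 CPM over all 8 libraries. Summed fibroblast markers ran the other way among controls, at 1410, 200, 1470 and 453 CPM. The exception was PDGFRA, which was at 88.5, 57.6, 84.0 and 104 CPM in controls 1 to 4, highest in control 4. Chondrocyte markers summed to 6590 to 16000 CPM in controls and to 19500 to 134000 CPM in osteoarthritis, with 9 of 10 higher by unadjusted p under 0.05 and 0 by adjusted p. The part of these cells in the levels of the Notch genes was not tested.

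**Figure D4:**
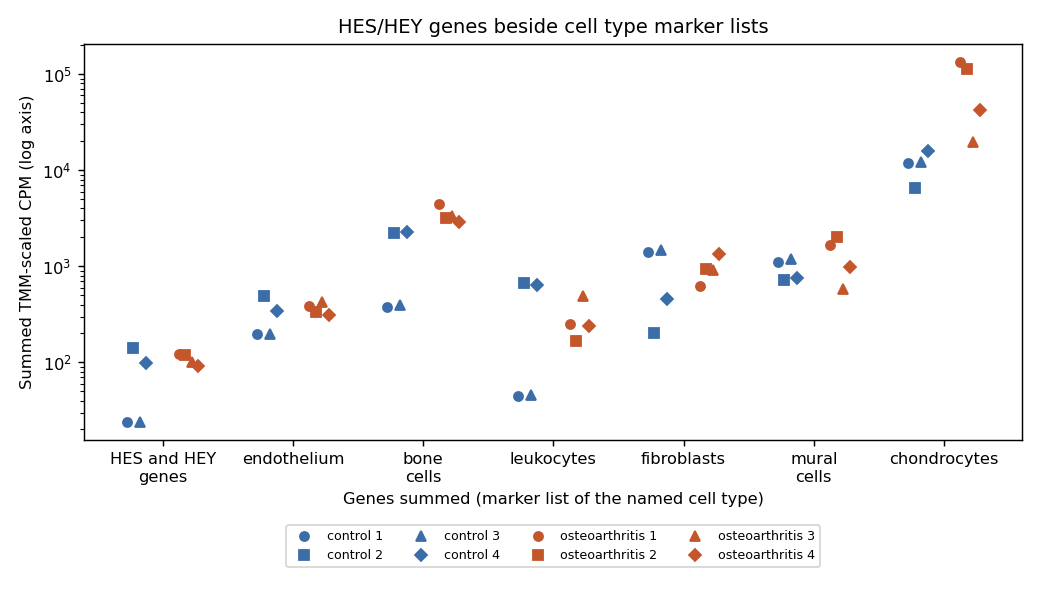
Summed TMM-scaled CPM, on a log axis, of the 4 HES and HEY genes and of marker lists for 6 cell types, with 1 point per library. In controls 1 and 3 the HES and HEY genes, endothelial, bone cell and leukocyte markers are lower than in any other library, whereas fibroblast markers are higher in them than in the other controls.

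Several of the 10 genes moved together across libraries. Of 45 pairs, 13 had a Pearson r of log2 CPM above 0.8 over the 8 libraries, and 10 passed an exact permutation test adjusted over the 45, while 0 passed by Spearman's rho. The correlations were planned as a description without p-values, and the share of all gene pairs with such r was not computed. The permutations treat the 8 libraries as exchangeable, although these come from different groups and controls 1 and 3 are close to each other. HEY1 and HEY2 had r = 0.92 (exact permutation p = 9.2e-04, adjusted p = 0.019) and rho = 0.88 (exact permutation p = 0.0072, adjusted p = 0.11). Their r was 0.87 without the libraries farthest from the median, controls 1 and 3. NOTCH1 and HES1 had r = 0.93 (exact permutation p = 5.0e-04, adjusted p = 0.019) and rho = 0.95 (exact permutation p = 0.0011, adjusted p = 0.051), with r = 0.81 without controls 1 and 3. Other pairs rested on those libraries: for HEY2 and HEYL r went from 0.81 (exact permutation p = 0.034, adjusted p = 0.10; rho = 0.19, exact permutation p = 0.67, adjusted p = 0.79) to -0.69, and for NOTCH1 and DLL1 from 0.75 (exact permutation p = 0.030, adjusted p = 0.10; rho = 0.62, exact permutation p = 0.12, adjusted p = 0.27) to -0.07. NOTCH2 had r between -0.05 and 0.22 with the HES and HEY genes (adjusted permutation p from 0.71 to 0.91; rho from 0.02 to 0.43, adjusted permutation p from 0.48 to 1.00). Without control 2 and osteoarthritis 3, the libraries farthest from the median of NOTCH2, these r were 0.44 to 0.95. Between deviations from the group means over all 8 libraries, r was -0.776 with HEYL, -0.365 with HES1, -0.307 with HEY1 and -0.306 with HEY2. The sign of these r thus depends on the libraries used and on whether group means are removed.

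Among 9678 genes that had a symbol and averaged 2 or more in log2 CPM, the closest match to each of the 10 was found by Pearson r of log2 CPM over the 8 libraries, given as a description. Each r is the highest of 9678 over only 8 libraries, so a high value can come from the search itself. How high the best match of other genes would be was not computed. DMP1, a matrix protein gene of osteocytes, was most like HEY2 (r = 0.997), at 5.58, 594, 4.49 and 575 CPM in controls 1 to 4 and 192 to 644 CPM in osteoarthritis. CKB, a creatine kinase, was most like HEY1 (r = 0.995), BCL10, an adaptor of NF-kB signalling, most like HES1 (r = 0.997), and PHOSPHO1, a phosphatase of skeletal mineralisation, most like HEYL (r = 0.972). NOTCH1 was matched by the adaptor gene SH2D3C (r = 0.993), NOTCH2 by COL1A2, a chain of type I collagen (r = 0.978), and NOTCH3 by BMPER, a secreted regulator of BMP signalling (r = 0.984). For the ligands these were LHFPL6 for JAG1 (r = 0.953), ARHGEF15, a gene of vascular endothelium, for JAG2 (r = 0.993) and WBP1L for DLL1 (r = 0.990). All 10 of these matches had edgeR adjusted p between 0.29 and 0.99 for the group difference.

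Beyond the 10 genes, 59 genes of the pathway were listed, 53 were tested, and 0 passed over all genes by edgeR, while 1 was higher and 4 were lower by unadjusted p under 0.05. These 5 are 9.43% of the 53, below the 15.2% of all genes, and the 6 whose groups did not overlap are 11.3%, near the 11.2% of all genes. The median log2 fold change of the 53 was -0.09, beside 0.0049 for all genes tested. NCSTN, which encodes nicastrin, a subunit of the gamma-secretase that cuts Notch receptors, was the 1 higher gene. It was measured at 48.8, 52.3, 48.7 and 56.8 CPM in controls 1 to 4 and at 73.8, 77.0, 106 and 77.2 CPM in osteoarthritis libraries 1 to 4, without overlap (0.69 ± 0.18, unadjusted p = 0.0038, edgeR adjusted p = 0.13). The 9 tested genes of receptor cleavage had a median log2 fold change of 0.20.

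Genes that act on the receptors and ligands before or after signalling were mostly below 0. NEURL1, an E3 ligase that in Drosophila acts on Notch ligands, was measured at 287, 956, 313 and 259 CPM in controls 1 to 4 and at 174, 188, 196 and 168 CPM in osteoarthritis libraries 1 to 4, lower in all 4 osteoarthritis libraries (-1.32 ± 0.44, unadjusted p = 0.014, edgeR adjusted p = 0.21). FBXW7, which marks the intracellular part of Notch and other proteins for degradation, was at 17.9 ± 0.89 and 13.0 ± 2.13 CPM without overlap (-0.46 ± 0.18, edgeR adjusted p = 0.27). LFNG, a glycosyltransferase that changes the response of the receptors to ligands, averaged 14.6 ± 6.56 CPM in controls against 9.79 ± 1.02 CPM in osteoarthritis (-0.57 ± 0.32, edgeR adjusted p = 0.43), and POFUT1, which adds O-fucose to the receptors, at 0.40 ± 0.23 on the log2 scale (edgeR adjusted p = 0.44). By list, 3 of 12 genes of endocytosis and turnover and 1 of 5 glycosyltransferase genes were above 0, with medians of -0.33 and -0.57.

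In the nucleus, RBPJ averaged 57.2 ± 9.79 CPM in controls against 63.1 ± 20.2 CPM in osteoarthritis (0.14 ± 0.26, edgeR adjusted p = 0.84). SNW1, a splicing factor that also binds the Notch complex, was at 15.6, 13.1, 15.9 and 14.3 CPM in controls 1 to 4 and at 10.1, 9.90, 10.4 and 9.64 CPM in osteoarthritis libraries 1 to 4, lower in all 4 osteoarthritis libraries (-0.55 ± 0.16, unadjusted p = 0.0064, edgeR adjusted p = 0.16). KAT2B, an acetyltransferase, did not overlap between groups either, averaging 22.2 ± 4.27 CPM in controls against 29.3 ± 1.68 CPM (0.40 ± 0.18, edgeR adjusted p = 0.34). The nuclear complex list had 6 of 11 genes above 0 and a median of 0.09, and the corepressors had 3 of 10 above 0 and a median of -0.20, with CTBP1 at -0.48 ± 0.23 and NCOR1 at -0.38 ± 0.19 (edgeR adjusted p = 0.38 for both).

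Of the remaining ligands, receptors and targets, NOTCH4, the endothelial receptor, was lowest in controls 1 and 3. NOTCH4 was at 17.2, 81.4, 14.7 and 48.3 CPM in controls 1 to 4 and at 23.6 to 46.0 CPM in osteoarthritis (-0.15 ± 0.53, edgeR adjusted p = 0.93). DLL4, the endothelial Delta ligand, was lowest in control 1 and osteoarthritis 4. It was at 3.59, 11.3, 4.93 and 13.0 CPM in controls and at 4.22 to 9.82 CPM in osteoarthritis (-0.08 ± 0.44, edgeR adjusted p = 0.96). NRARP, a feedback inhibitor induced by Notch, was near the limit of detection at 30 counts over the controls and 103 over osteoarthritis (1.12 ± 0.63, edgeR adjusted p = 0.44), and HES6, a family member that counteracts HES1, was at 3.87 ± 1.47 and 1.84 ± 0.61 CPM (-1.09 ± 0.37, unadjusted p = 0.016, edgeR adjusted p = 0.22). DLK1, DLK2 and DNER were too low to be tested, with at most 16 counts in any library.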

How the data were processed

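The authors deposited 1 table per gene and library with estimated counts, TPM (counts over effective length, rescaled to a fixed total), log2 TPM and effective gene length. The submitters' processing notes name STAR 2.7.9a and Salmon 1.1.0, with Trim Galore 0.6.7, MultiQC 1.13, StringTie 2.1.0 and DESeq2 1.26.0 beside them, and the build Sscrofa11.1, in roles not given in the sources used here. Per the file headers, the lengths came from Salmon. The deposited estimated counts are whole numbers and were rounded as a safeguard. The 8 log2 TPM columns were not used. Strand setting and pre-deposit filter are not given in the sources used here, so overlapping antisense genes cannot be told apart.

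Counts were filtered with filterByExpr, TMM-scaled and tested with edgeR 4.0.16 (robust quasi-likelihood, group as the sole term; R 4.3.3), with Benjamini-Hochberg adjustment over all 16020 genes. The SE is the fold change over the square root of F. Shares by TPM were compared by exact permutation. Limma 3.58.1 and DESeq2 1.42.0 served as alternatives. The edgeR script was tested on simulated data. Symbols came from the file for 12365 genes and from reference tables for 564 and 593 more, and gene spans from RefSeq on Sscrofa11.1, which places NOTCH1 and JAG2 on no chromosome. No sequences were used here.

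The members, gene lists, marker lists and tests were chosen with earlier results of these data known. Named genes were all 10 members, the 2 of each pathway list with the smallest p plus NOTCH4, DLL4, RBPJ, LFNG and NRARP, the gene most like each member and up to 2 genes of each marker list with the highest TPM. PECAM1, CSPG4, CSF1R, KRT5, KRT14, COL2A1 and ACAN come from the last. SP7, PDGFRA, ACTA2, MYH11 and TAGLN were named beyond this rule. One gene that this rule picks is not reported here. DLL3, HES5, HES7, DSG3 and EPCAM were not analysed here. Summed markers are given in CPM, since TPM shifts between groups. Skeletal muscle markers summed to at most 21.6 CPM.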

Additional observations from a re-analysis of the deposited data

Results flagged for a closer look

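Among 40 groups of 4 values (levels and shares of the 10 genes in each group), 2 held a library far from the others, and chance flags about 1 in 20 groups. NOTCH2 was at 138.4 CPM in control 2, against 243 to 265 CPM in the other controls. The gap was 0.832 of the range, just above the critical value for 4 samples. JAG2 made up 36.5% of ligand TPM in control 2, against 15.1% to 17.7% in the other controls. Control 2 also had the lowest scaling factor, 0.424. Scaling by this factor raised the CPM of control 2, and it does not enter a share within a library. Control 2 had the highest share of counts in non-coding genes as well, 50.3%, and the part of these genes in both values was not tested.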

How the results depend on the processing

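None of the 10 genes was called by edgeR under another scaling, filter or robustness setting, with the replicate block, with any library left out or under the added fits (effective lengths as offsets, protein-coding genes only), which were chosen after seeing the data. NOTCH2 and HEYL were above 0 under every alternative. Library size alone gave 0.75 for NOTCH1, 0.43 for NOTCH3, 0.11 for JAG2 and 0.72 for HEY1, all turned above 0, and 214 genes called in place of 99. It moved the median of all genes from 0.0049 to 0.65. Limma-voom gave 0.34 for NOTCH1, 0.38 for HEY1 and 1.85 for HEY2, which edgeR put at 0.48. Limma-voom with sample weights called 6 members, NOTCH2 at 0.62, DLL1 at 1.26, HES1 at 1.22, HEY1 at 1.24, HEY2 at 3.65 and HEYL at 1.68, put NOTCH1 at 1.15, NOTCH3 at 0.077 and JAG2 at 0.074, and called 3329 genes. Log2 TPM called 13880 genes and all 10 members, NOTCH1 at 2.45, NOTCH2 at 2.52, NOTCH3 at 1.68, JAG1 at 1.865, JAG2 at 1.34, DLL1 at 2.52, HES1 at 2.46, HEY1 at 2.13, HEY2 at 3.60 and HEYL at 2.965.

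DESeq2 called 858 genes, an adjusted threshold of 0.10 gave 285, and summing controls 1 and 3 gave 31. Without both controls 1 and 3, DLL1 was at -0.30, HES1 at -0.30 and HEY2 at -0.43. Effective length offsets put NOTCH1 at 0.12. Same-numbered libraries did not deviate together (r across genes from -0.34 to -0.018). These r rest on deviations from means of 4 libraries and cannot exclude pairing, and the labels do not say whether the numbers pair the samples. With the replicate block, NOTCH1 and HEY1 were both at 0.29, HEY2 was at 1.69 and 1 gene was called. With 1 library left out, 14 to 152 genes were called, NOTCH1 ranged from -0.35 to 0.58, HEY1 from -0.39 to 0.34 (above 0 without control 2 or 4 or osteoarthritis 2 or 4) JAG1 from -0.20 to 0.40 and HEY2 from 0.11 to 1.18. The cause of these moves was not tested.

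No share passed with 1 library left out or with counts in place of TPM. The smallest p of these designs is 0.029, and 1 share alone at that p cannot pass after adjustment over the 10 shares. Without both controls 1 and 3, where the smallest p is 0.067 and no share could pass, the differences in share were -12.6 points for NOTCH1, 9.61 for JAG1 and -6.55 for HEY2. Counts in place of TPM gave -4.47 for NOTCH1, 3.07 for JAG1 and -1.22 for HEYL. Paired sign flips by replicate number, whose smallest p of 0.125 cannot pass either, gave the same differences as the unpaired test. With 1 library left out, shares ranged from -3.61 to 10.4 points for NOTCH1, -3.84 to 9.21 for NOTCH2, -5.22 to 4.42 for JAG1 and -5.77 to 6.44 for HEYL. Depth limits HEY1, HEY2, HES1 and DLL1 in controls 1 and 3, at 17 to 35 counts each.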
